A study of Mus musculus with 45 samples.

Results

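Among 45 Trp53-null mouse mammary tumours, the 12 with the highest and the 12 with the lowest expression of 5 oxygen-responsive genes were compared, chosen by that expression alone, so that 24 of the 45 tumours entered the comparison and 21 stood between the sets. Each tumour was given a score, the mean log2 expression of Car9, Adm, Egln3, Ankrd37 and Slc2a1. All 45 were ranked by it, and the first 12 are called hypoxia-gene-high and the last 12 hypoxia-gene-low. Because expression of these 5 genes chose the tumours, their own values are given as a description without a test, and every test concerns the other genes or the hosts.

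Each tumour was measured on its own Affymetrix array. The transplants were BALB/c mammary fragments that lacked Trp53, the gene of the tumour suppressor p53, and they were never irradiated themselves. The hosts were wild-type BALB/c females of 10 weeks, cleared of their own mammary epithelium at 3 weeks, that had been exposed to silicon (Si) ions or to a sham procedure 3 days before receiving the fragment in an inguinal fat pad. Hosts were followed for 600 days and a tumour was removed when it measured 1 cm3. Of the 45 tumours, 18 came from sham hosts, 9 from hosts given 10 cGy, 10 from hosts given 30 cGy and 8 from hosts given 80 cGy. Every tumour therefore shares the Trp53-null donor epithelium and a wild-type host stroma, and the number of donor animals is not given in the sources used here.

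A cell short of oxygen stops degrading the alpha subunits of the hypoxia-inducible factors (HIF). With oxygen at hand, prolyl hydroxylases of the Egln family mark these subunits for capture by the Vhl protein and destruction, and without it the subunits pair with Arnt and bind DNA at short motifs with the core ACGTG or GCGTG. Genes switched on in this way move a cell towards glucose uptake and glycolysis, export the acid that follows, lower mitochondrial use of pyruvate and call in blood vessels, and solid tumours commonly hold poorly perfused areas where this happens.

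The 5 genes of the score cover several of these roles. Car9 encodes carbonic anhydrase IX, a surface enzyme that handles acid, Adm the vasodilator peptide adrenomedullin, Egln3 one of the prolyl hydroxylases, Ankrd37 an ankyrin-repeat protein and Slc2a1 the glucose transporter GLUT1. Ak4 encodes a mitochondrial adenylate kinase, Ero1a an oxidase that forms disulfide bonds in the endoplasmic reticulum and Slc16a3 the lactate exporter MCT4, and these 3 were among the other genes that separated the sets. The promoters of all 8 are shown because they carry the short letters that HIF reads. Each is the 250 bases before the transcription start in RefSeq (GRCm38.p6), printed 5′ to 3′ on the gene's strand, with every match to the core in capitals: ACGTG or GCGTG on the printed strand, CACGT or CACGC where the core lies on the other strand. They lie at chr4:43506776-43507025 (Car9, plus strand), chr7:110627407-110627656 (Adm, plus), chr12:54203875-54204124 (Egln3, minus), chr8:45999851-46000100 (Ankrd37, minus), chr4:119108495-119108744 (Slc2a1, plus), chr4:101419039-101419288 (Ak4, plus, the first of 4 promoters listed), chr14:45318573-45318822 (Ero1a, minus) and chr11:120948817-120949066 (Slc16a3, plus).
Car9: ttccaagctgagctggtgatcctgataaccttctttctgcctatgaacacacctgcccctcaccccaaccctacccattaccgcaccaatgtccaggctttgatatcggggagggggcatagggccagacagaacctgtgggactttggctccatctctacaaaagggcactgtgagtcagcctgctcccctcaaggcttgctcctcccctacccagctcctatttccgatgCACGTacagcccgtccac
Adm: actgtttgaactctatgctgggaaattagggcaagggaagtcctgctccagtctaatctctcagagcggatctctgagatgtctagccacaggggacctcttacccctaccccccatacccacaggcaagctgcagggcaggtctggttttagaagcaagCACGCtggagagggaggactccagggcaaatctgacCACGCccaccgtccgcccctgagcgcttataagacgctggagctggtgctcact
Egln3: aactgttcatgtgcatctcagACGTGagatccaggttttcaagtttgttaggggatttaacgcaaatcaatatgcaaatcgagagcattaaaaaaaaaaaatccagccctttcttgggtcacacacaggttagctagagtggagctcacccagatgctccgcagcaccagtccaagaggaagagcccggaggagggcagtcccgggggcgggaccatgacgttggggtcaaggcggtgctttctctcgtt
Ankrd37: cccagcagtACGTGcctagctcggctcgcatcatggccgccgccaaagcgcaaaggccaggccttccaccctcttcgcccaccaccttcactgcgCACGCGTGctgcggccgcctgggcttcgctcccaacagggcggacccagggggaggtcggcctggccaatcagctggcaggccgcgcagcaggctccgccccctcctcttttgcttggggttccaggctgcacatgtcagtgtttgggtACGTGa
Slc2a1: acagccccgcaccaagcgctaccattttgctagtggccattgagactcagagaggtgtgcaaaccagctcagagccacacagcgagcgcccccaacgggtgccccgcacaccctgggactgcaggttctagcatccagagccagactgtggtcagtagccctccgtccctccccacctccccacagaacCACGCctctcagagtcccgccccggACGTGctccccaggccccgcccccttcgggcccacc
Ak4: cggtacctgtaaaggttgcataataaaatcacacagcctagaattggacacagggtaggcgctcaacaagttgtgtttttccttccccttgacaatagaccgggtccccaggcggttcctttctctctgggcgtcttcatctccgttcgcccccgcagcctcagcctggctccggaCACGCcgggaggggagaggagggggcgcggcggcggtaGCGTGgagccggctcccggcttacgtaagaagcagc
Ero1a: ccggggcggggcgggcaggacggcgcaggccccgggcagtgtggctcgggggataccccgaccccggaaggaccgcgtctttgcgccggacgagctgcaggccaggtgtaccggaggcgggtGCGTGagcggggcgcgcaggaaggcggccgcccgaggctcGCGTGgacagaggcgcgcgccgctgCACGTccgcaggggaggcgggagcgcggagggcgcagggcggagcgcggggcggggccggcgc
Slc16a3: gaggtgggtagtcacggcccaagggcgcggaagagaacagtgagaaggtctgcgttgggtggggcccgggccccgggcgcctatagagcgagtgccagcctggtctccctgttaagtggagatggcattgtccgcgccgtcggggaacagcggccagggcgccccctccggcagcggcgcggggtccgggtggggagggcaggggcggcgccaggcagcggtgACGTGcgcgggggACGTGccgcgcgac

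The Car9 promoter held 1 core, whose first base lay 18 bases before the start. The Slc16a3 promoter held 2, at 27 and 14 bases before the start, and the Slc2a1 promoter held 2, at 61 and 36. The Ankrd37 promoter held 4, of which a pair overlapped in the letters CACGCGTG and another lay 6 bases before the start. Of 15 promoters listed for the 5 scored genes and the 6 genes that passed the test below, 14 held at least 1 core. These windows are not all separate, as Ak4 promoters 1, 2 and 3 overlap and hold the same 2 cores. The exception was the upstream 1 of 2 Vegfa promoters (chr17:46032378-46032627, minus strand). The Vegfa window that held cores (chr17:46025164-46025413) lies downstream of the upstream start. It is counted in the 14, but the window before the upstream Vegfa start held no core. Fkbp5, which was lower in the high set, also held the core, as CACGTG 169 bases before the start. The core is short and common: 38.6% of all 32851 promoters in the table held at least 1 in a window of the same length, 16.7% held at least 2 and 6.58% at least 3. Where the palindrome CACGTG occurs it counts on both strands. A match describes the letters in the window and does not show that a factor was bound.

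Scores ran from 8.55 to 9.66 in the high set, with a median of 9.06, and from 6.76 to 7.73 in the low set, with a median of 7.35. The ranking was continuous. The 12th tumour, 80 cGy replicate 5, had a score of 8.55 and the 13th, 30 cGy replicate 5, one of 8.52. At the lower end, the last tumour outside the low set, sham replicate 14, had 7.77 and the first inside it, 30 cGy replicate 7, had 7.73. The highest scores belonged to sham replicate 11 (9.66) and 10 cGy replicate 8 (9.64), and the lowest to 30 cGy replicate 6 (6.76).

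**Figure D1:**
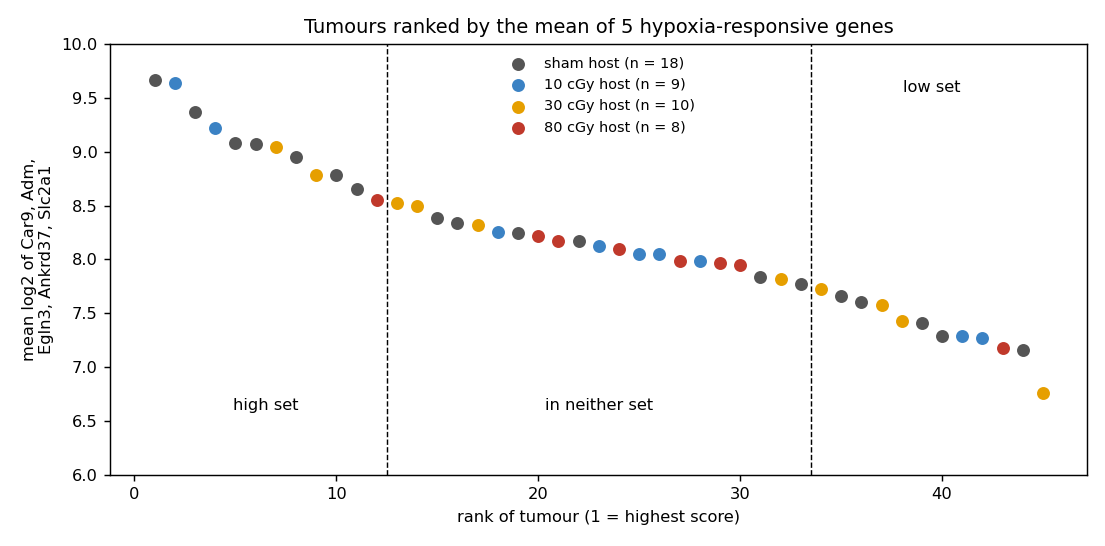
Each point is 1 of the 45 tumours, placed by its rank on the horizontal axis and by its score, the mean log2 expression of Car9, Adm, Egln3, Ankrd37 and Slc2a1, on the vertical axis, and coloured by the host's dose. Dashed lines part the 12 high, 21 other and 12 low tumours; no gap in the score falls at either line (8.55 against 8.52, and 7.77 against 7.73).

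Car9 differed most among the scored genes. It lay between 6.31 and 9.43 in the high set, with a median of 7.61, and between 4.84 and 6.12 in the low set, with a median of 5.60. No high tumour fell within the range of the low set. Slc2a1 ranged from 10.94 to 12.47 (median 11.78) in the high and from 9.68 to 11.17 (median 10.47) in the low set, and 11 of 12 high tumours exceeded all low ones.

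Egln3 ranged from 8.78 to 10.92 (median 10.21) in the high set and from 7.35 to 9.35 (median 8.24) in the low set. In Egln3, 10 of the high tumours were above every low tumour. Ankrd37 ranged from 5.87 to 7.50 (median 6.71) against 5.27 to 6.41 (median 5.76), with 9 high tumours above every low one. Adm overlapped most, at 7.42 to 10.62 (median 8.53) in the high and 4.74 to 9.24 (median 6.66) in the low set, and only 3 high tumours exceeded the highest low tumour, sham replicate 9.

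The 5 genes did not move as a block. Over the 45 tumours Pearson's r between pairs of them ran from 0.13 (Adm with Egln3) to 0.68 (Car9 with Slc2a1), as a description across arrays that share their normalization. Sham replicate 9 shows the mixture: its Adm value (9.24) was above those of 9 high tumours, while its Egln3 (7.35), Car9 (4.84) and Slc2a1 (9.68) values were the lowest of all 45. Ranking with each gene left out in turn kept 10 to 12 of the 12 high and 10 to 12 of the 12 low tumours. The gene left out then still differed between the sets it had not helped to choose: Car9 by 2.21, Adm by 1.50, Egln3 by 1.44, Slc2a1 by 1.24 and Ankrd37 by 0.67 on the log2 scale.

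The 2 sets held both kinds of host. The high set comprised 7 tumours from sham hosts, 2 from 10 cGy, 2 from 30 cGy and 1 from 80 cGy hosts. The low set comprised 5 from sham hosts, 2 from 10 cGy, 4 from 30 cGy and 1 from 80 cGy hosts. Sham hosts thus gave 58.3% of the high set (exact 95% binomial interval 27.7 to 84.8) and 41.7% of the low set (15.2 to 72.3). The difference did not exceed what counting error allows (Fisher's exact test, two-sided p = 0.684), nor did the 4 host groups differ between the sets (exact Fisher-Freeman-Halton test, p = 0.918).

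Scores overlapped across the hosts. Sham tumours ranged from 7.16 to 9.66 with a median of 8.29, 10 cGy tumours from 7.27 to 9.64 with a median of 8.05, and 30 cGy tumours from 6.76 to 9.05 with a median of 8.07. The 80 cGy tumours, of which 6 of 8 stood between the sets, ranged from 7.17 to 8.55 with a median of 8.04.

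Array medians lay between 5.48 and 5.80 and differed little between the sets (median 5.67 in the high and 5.68 in the low set). Of 35556 probe sets, those with a single gene symbol covered 18820 genes. A gene was tested where its value exceeded the median of the whole table, 5.67, in at least 8 tumours, which left 12118 genes beside the 5 of the score. A dim gene can pass this filter through the tumours in which it is high. Counts in lists of dim genes therefore describe only the members that passed. All 45 tumours were single pieces of bulk tissue. The list of epithelial junction genes set 1 of 12 high and 4 of 12 low tumours apart by a score below -1 (the score is the mean of log2 values after each gene's mean over the 45 tumours is subtracted). Skeletal muscle or adipocyte genes, which mark host tissue (the fat pad itself and muscle), had a score above 2 in 1 high and 3 low tumours. What changed in the gene lists without these tumours is given beside each list or after the last one. A total of 8 pairs of tumours share a description label up to its last letter, L or R, the meaning of which is not stated. Whether such a pair came from 1 host is not stated either, and the main tests treat its tumours as separate. Sham replicates 11 and 12, both high, are such a pair, and so are sham replicates 8 (high) and 9 (low).

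Beyond the genes of the score, 6 genes separated the 2 sets after adjustment (limma, Benjamini-Hochberg, adjusted p under 0.05), which is 0.0495% of the 12118 tested. Of these, 5 were higher in the hypoxia-gene-high tumours (0.0413%): Ak4, Vegfa, Ero1a, Ier3 and Slc16a3. The single gene that was lower (0.00825%) was Fkbp5. The sets come from 5 genes of the same arrays, so each p describes the association of another gene with that ranking and not the effect of a treatment. Nothing states that the tumours came from separate hosts, so the p-values measure the spread between these tumours.

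Ak4 encodes adenylate kinase 4 of the mitochondrial matrix. It ranged from 9.71 to 10.77 in the high set, with a median of 10.35, and from 7.75 to 9.22 in the low set, with a median of 8.72. All 12 high tumours lay above all 12 low ones. The difference was 1.57 ± 0.16 (SE, log2), or 2.96-fold (limma adjusted p = 7.43e-06).

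Vegfa, the main growth factor of blood vessel endothelium, ranged from 9.46 to 11.12 (median 10.15) in the high and from 7.59 to 9.45 (median 8.82) in the low set. Here too the sets did not overlap, although the lowest high tumour, 30 cGy replicate 4, and the highest low tumour, 30 cGy replicate 1, were within 0.01 of each other. The difference was 1.44 ± 0.21, or 2.71-fold (limma adjusted p = 0.00253).

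Ero1a, the endoplasmic reticulum oxidase, ranged from 9.71 to 11.65 (median 10.80) in the high and from 8.77 to 11.21 (median 9.45) in the low set. Its range in the low set owed its upper end to a single tumour, 10 cGy replicate 3, and 12 of 12 high tumours stood above the mean of the low set. The difference was 1.23 ± 0.21 (limma adjusted p = 0.0142).

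Ier3, an early-response gene whose product affects cell survival, ranged from 6.87 to 9.03 (median 7.84) in the high and from 5.25 to 7.14 (median 6.68) in the low set, and 9 high tumours exceeded every low one. The difference was 1.42 ± 0.25 (limma adjusted p = 0.0203). Slc16a3, the MCT4 lactate exporter, ranged from 7.44 to 10.19 (median 9.16) against 7.09 to 8.81 (median 7.64), with 8 high tumours above every low one. It differed by 1.37 ± 0.26 (limma adjusted p = 0.0375).

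Fkbp5 encodes FKBP51, a co-chaperone of the glucocorticoid receptor whose gene glucocorticoids induce. It ranged from 7.27 to 8.40 (median 7.76) in the high set and from 8.13 to 9.71 (median 8.87) in the low set. In all, 10 of 12 high tumours lay below every low tumour, and the sets overlapped between 8.13 and 8.40. Fkbp5 was lower in the high set by a factor of 2.06, a difference of -1.04 ± 0.16 (limma adjusted p = 0.00492).

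**Figure D2:**
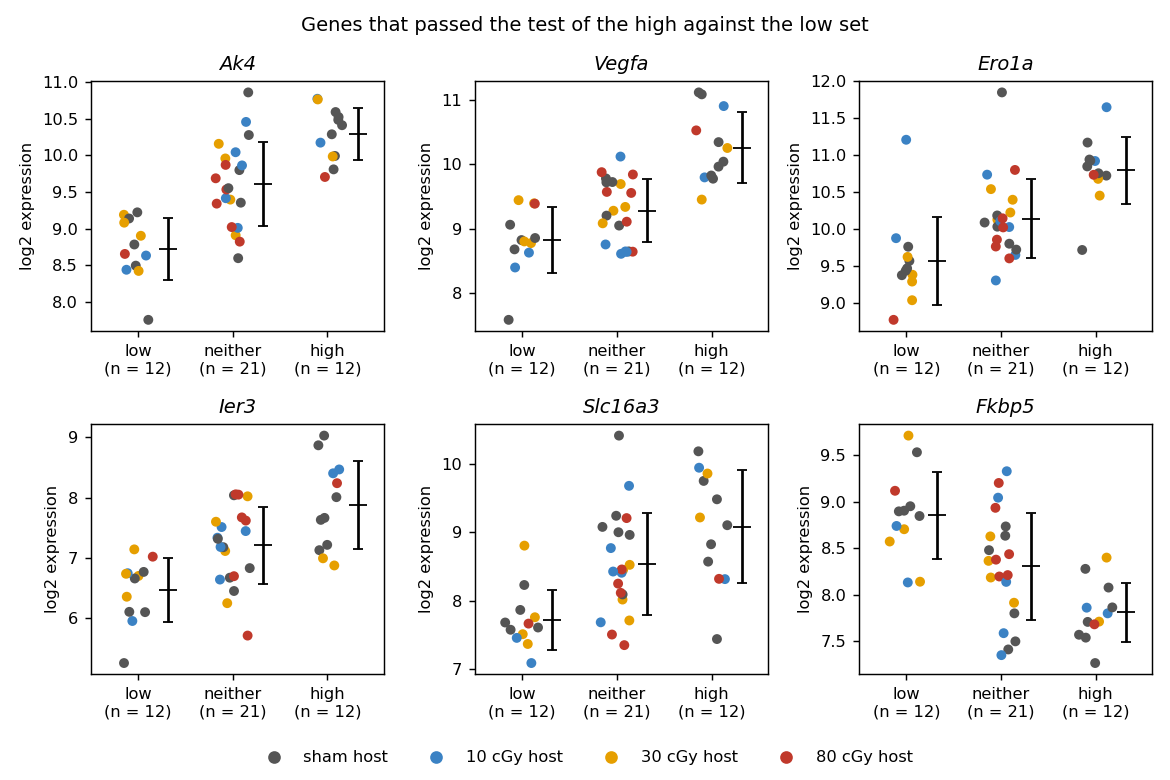
Log2 expression (vertical axis) of the 6 genes that passed the test, in the 12 low, 21 other and 12 high tumours (horizontal axis). Each point is 1 tumour coloured by host dose, and the bar beside each set is the mean ± SD; Ak4 and Vegfa do not overlap between the high and the low set, and Fkbp5 runs the other way.

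How many genes passed depended on 1 tumour of the high set. Without 30 cGy replicate 4, which had the lowest junction score of that set (-2.38) and the lowest array median (5.48), 26 genes passed, 11 higher and 15 lower, and they included all 6. Without sham replicate 7 the number was 10. Ak4, Vegfa, Ero1a and Fkbp5 passed whichever of the 24 tumours was left out. Under 27 other alternatives Ak4 passed in 27, Vegfa in 26, Ero1a in 22 and Fkbp5 in 19. Fkbp5 did not pass with sets of 8 (limma adjusted p = 0.152) or of 15 (0.114), for the slope over 45 tumours (0.0519), or with Car9 (0.0662), Egln3 (0.274) or Ankrd37 (0.339) left out of the score. Ero1a did not pass with sets of 8 (limma adjusted p = 0.161) or with 1 tumour per label stem (0.110). Ier3 did not pass without 10 cGy replicate 8 (limma adjusted p = 0.0539) or without sham replicate 10 (0.0518).

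Slc16a3 passed on leaving out 8 of the 24 tumours but not on leaving out the other 16, where the limma adjusted p reached 0.0943. Under the 27 other alternatives Slc16a3 passed in 17 (limma adjusted p up to 0.179) and Ier3 in 15 (up to 0.379). The 16 tumours were sham replicates 1, 8, 9, 10, 11, 12, 15 and 16, 10 cGy replicates 2, 3 and 8, 30 cGy replicates 2, 6, 7 and 10, and 80 cGy replicate 8. With the host group in the fit, 4 genes passed and Ier3 (adjusted p = 0.0600) and Slc16a3 (0.0652) did not. Without the 5 tumours poor in junction genes only 3 genes passed, all higher, Ak4 and Vegfa among them, and Fkbp5 (-0.96, adjusted p = 0.0739) and Ero1a (1.12, adjusted p = 0.160) did not. With the junction score in the fit 4 passed, and Ero1a (limma adjusted p = 0.0555) and Ier3 (0.0681) did not.

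At an unadjusted limma p under 0.05, 421 genes were higher in the high set (3.47%) and 798 lower (6.59%), 10.1% in all. This split depended on scaling: with every array centred on its median and the sets unchanged it was 636 higher and 582 lower, and with quantile normalization over the tested genes and the sets unchanged it was 560 and 612. The median difference over all 12118 genes was -0.02 as deposited and 0.02 after either kind of centring (sets unchanged or ranked anew). These shares are the background for the gene groups that follow. In them a gene is counted as higher or lower at an unadjusted p under 0.05. No change is claimed for a gene that missed the adjusted threshold. By sign alone, 5558 of the 12118 genes had a positive difference and 6560 a negative one. The genes of a list were measured in the same tumours and can vary together. A sign shared by a list is therefore not a count of separate observations.

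The 8 lists of genes that hypoxia is known to affect held 121 tested genes beside those of the score. Of these, 41 were higher in the high set (33.9%, against 3.47% of all genes) and 4 lower (3.31%, against 6.59%), and the median difference was 0.22. The 4 that passed the adjusted test were Ak4, Vegfa, Ero1a and Slc16a3. The score did not use these genes, but the 40 gene lists were chosen with earlier results of these data known. The counts therefore describe the sets and are not an independent check of the name given to them. The groups that follow differed in how many of their genes were higher.

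Among these lists, glucose handling had the most genes that were higher. Of 17 genes of glucose transport and glycolysis, 10 were higher and 1 lower, with a median difference of 0.43. Pfkl, the liver form of phosphofructokinase, ranged from 9.21 to 10.65 (median 9.72) in the high and from 8.37 to 10.44 (median 8.72) in the low set. All 12 high tumours exceeded the low mean, but 2 low tumours reached into the upper range, and the difference was 0.95 ± 0.22 (limma p = 0.000263, adjusted 0.141). Pfkp, the platelet form, differed by 0.91 ± 0.22 (p = 0.000288), with 7 high tumours above every low one.

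Pgk1, the phosphoglycerate kinase that yields ATP, ranged from 10.89 to 11.81 (median 11.57) against 9.61 to 11.45 (median 10.93). It differed by 0.74 ± 0.18 (limma p = 0.000439, adjusted 0.160), with 7 high tumours above every low one. Tpi1, triosephosphate isomerase, differed by 0.52 ± 0.14 and Pgam1, phosphoglycerate mutase, by 0.49 ± 0.14. In both, all 12 high tumours exceeded the mean of the low set. The gene that ran the other way was Pfkfb4, a regulator of phosphofructokinase named after its value was seen, at -0.35 ± 0.16 (limma p = 0.0393).

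Acid export joined this pattern in part. Of 7 genes, 3 were higher and none lower, with a median difference of 0.30. Beside Slc16a3, Car12, which encodes the surface carbonic anhydrase XII, ranged from 7.05 to 11.11 (median 9.59) in the high and from 5.86 to 9.67 (median 7.87) in the low set. In 5 high tumours it exceeded all low ones, and the difference was 1.65 ± 0.43 (limma p = 0.000806, adjusted 0.184). Slc16a1, the lactate transporter MCT1, differed by 0.53 ± 0.23 (p = 0.0309), and Bsg, the chaperone of both transporters, by 0.30 ± 0.16 (p = 0.0688).

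The list of mitochondrial switch and mitophagy genes, which also holds HIF-induced genes with other roles, had 6 of 13 higher and none lower, with a median difference of 0.39. Bnip3, a mitophagy receptor, ranged from 8.88 to 11.34 (median 10.14) in the high set and from 7.98 to 10.50 (median 8.84) in the low set. The ranges overlapped in all but 2 high tumours, and the difference was 1.19 ± 0.26 (limma p = 0.000133, adjusted 0.118). Pdk1, the kinase that shuts off pyruvate dehydrogenase, ranged from 7.14 to 8.91 (median 8.01) against 6.36 to 8.09 (median 7.08) and differed by 0.84 ± 0.19 (p = 0.000207, adjusted 0.126). Fam162a, a mitochondrial protein gene induced by HIF, differed by 0.77 ± 0.19, Mif, a cytokine that HIF also induces, by 0.55 ± 0.14, and Higd1a, of the respiratory chain, by 0.88 ± 0.31.

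The respiratory chain itself did not follow. Of 24 oxidative phosphorylation subunits none reached p under 0.05 in either direction, and their median difference was -0.07. The mitochondrial ribosome (20 genes, median 0.01) and the cytoplasmic ribosome (18 genes, median 0.01) also had none.

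**Figure D3:**
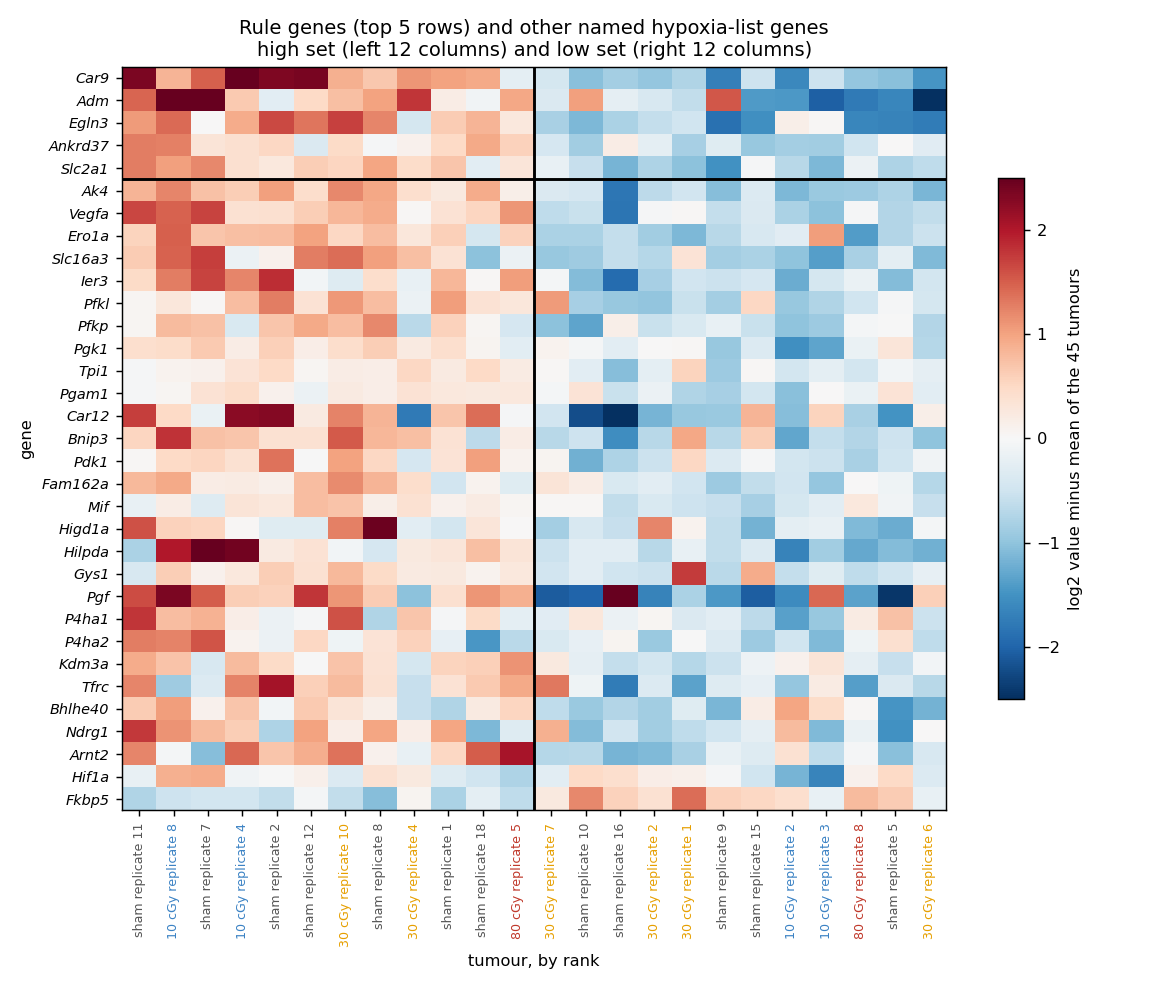
Log2 expression of 33 genes (vertical axis) in the 24 tumours, ordered by rank (horizontal axis, names coloured by host dose), as the difference from each gene's mean over the 45 tumours; red is above and blue below that mean. The 5 genes above the horizontal line are those of the score, the vertical line parts the high from the low set, and Hif1a, near the foot, shows no such contrast (difference 0.21). Most other rows are list genes with a small p in this same comparison, so the choice of rows adds to the contrast. Pfkfb4, Angpt1, P4ha3 and Ero1b, which were lower in the high set, are not shown.

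Storage of fuel was higher in 4 of 13 genes and lower in none, with a median difference of 0.23. Hilpda, which inhibits lipid breakdown and coats lipid droplets, ranged from 5.78 to 9.20 (median 6.89) in the high and from 4.91 to 6.40 (median 5.92) in the low set. As many as 10 of 12 high tumours stood above every low one, with a difference of 1.42 ± 0.33 (limma p = 0.000234, adjusted 0.135). The 3 highest values among the 24 tumours were in sham replicate 7 and 10 cGy replicates 4 and 8 (9.20, 9.00 and 8.57). The glycogen genes Gys1 (glycogen synthase, 0.48 ± 0.22), Gbe1 (the branching enzyme, 0.47 ± 0.23) and Ppp1r3b (a glycogen phosphatase subunit, 0.39 ± 0.17) made up the rest.

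Among 19 angiogenic and vasoactive factors, 4 were higher and 1 lower, and the median difference was -0.11, so that the group as a whole did not lie above the other genes. Pgf, placental growth factor, ranged from 7.33 to 10.70 (median 9.34) in the high and from 5.92 to 10.93 (median 6.86) in the low set. The highest value of all 24 was in a low tumour, and 11 of 12 high tumours exceeded the low mean, with a difference of 1.86 ± 0.49 (limma p = 0.000876, adjusted 0.194). Apln, the vascular peptide apelin, differed by 0.78 ± 0.32 and Nos2, the inducible nitric oxide synthase, by 1.16 ± 0.56.

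Angpt1, the ligand that steadies vessels through the Tek receptor, was the lower one. It ranged from 4.04 to 6.36 (median 4.62) in the high and from 5.01 to 7.76 (median 5.41) in the low set, a difference of -0.96 ± 0.36 (limma p = 0.0133, adjusted 0.364), and 7 high tumours lay below every low one. With the junction score in the fit, 7 of the 19 genes were higher and the median was 0.01.

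Collagen hydroxylation and crosslinking gave no common direction, at 3 of 13 higher, 2 lower and a median of -0.04. P4ha1 and P4ha2, the alpha subunits of collagen prolyl hydroxylase, differed by 0.70 ± 0.26 (limma p = 0.0130) and 0.64 ± 0.27 (p = 0.0259). P4ha3, the third such subunit, differed by -0.92 ± 0.43 (p = 0.0451) and Ero1b, the relative of Ero1a, by -0.35 ± 0.15 (p = 0.0327). After centring with the sets unchanged, the median was 0.003 and none was lower.

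Of 24 further hypoxia-induced regulators and stress genes, 9 were higher and none lower, with a median difference of 0.32. Kdm3a, a histone demethylase, ranged from 8.65 to 10.21 (median 9.67) in the high set and from 8.38 to 9.43 (median 8.87) in the low set. It exceeded every low tumour in 9 high ones, and the difference was 0.68 ± 0.17 (limma p = 0.000581, adjusted 0.177). Tfrc, the transferrin receptor for iron uptake, differed by 1.03 ± 0.32 (p = 0.00392), Ndrg1, a stress-response gene, by 0.85 ± 0.31 (p = 0.0108) and Bhlhe40, a transcriptional repressor, by 0.71 ± 0.25 (p = 0.00984).

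Apart from Egln3, which the score used and which is left out here, and Arnt2, most of the machinery that senses oxygen differed little. Of 15 genes of HIF subunits and sensors, 2 were higher and none lower, with a median of -0.03 that turned to 0.01 after centring with the sets unchanged. Hif1a, the HIF-1 alpha subunit, ranged from 9.90 to 11.60 (median 10.61) in the high and from 9.01 to 11.17 (median 10.71) in the low set, and the sets overlapped almost wholly (0.21 ± 0.24, limma p = 0.388). Epas1, the HIF-2 alpha subunit, differed by -0.40 ± 0.29 (p = 0.189), Arnt, the shared partner, by -0.17 ± 0.12 (p = 0.173), and Egln2 by -0.16 ± 0.15 (p = 0.284). Vhl, which captures the hydroxylated subunits, differed by -0.01 ± 0.12 (p = 0.926), with a sign that several alternatives turned.

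Both genes of this group that stood higher are tied to HIF. Arnt2, a relative of Arnt, ranged from 5.58 to 8.70 (median 7.44) in the high and from 5.48 to 7.03 (median 5.98) in the low set, and 8 high tumours exceeded every low one (1.27 ± 0.28, limma p = 0.000124, adjusted 0.118). Egln1, the main prolyl hydroxylase and itself a HIF target, differed by 0.40 ± 0.18 (p = 0.0333, adjusted 0.445).

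Genes whose course over all 45 tumours was most like the score's, by Pearson's r, were Ak4 (0.76), Vegfa (0.72), Ero1a (0.68), Slc16a3 (0.64) and Fam162a (0.63). These tumours include the 24 that were tested, so the values describe the same contrast over more tumours. The 21 tumours between the sets gave a narrower view, with scores from 7.77 to 8.52 (SD 0.213). Within them no gene followed the score at an adjusted p under 0.05 (limma slope, 0.0% of 12118), while 289 did at an unadjusted p under 0.05 (2.38%), 204 upward and 85 downward. The slope, in log2 per unit of the score, was 0.85 ± 0.53 for Ero1a, 0.74 ± 0.75 for Slc16a3, 0.29 ± 0.59 for Ak4, -0.05 ± 0.66 for Ier3, -0.13 ± 0.51 for Vegfa and -0.15 ± 0.59 for Fkbp5, each with an adjusted p of 0.9995. The slope over all 45 tumours was 0.83 for Ak4 and 0.78 for Vegfa, within 2 standard errors of the slope in the 21 tumours for both genes. A flat line also lay within that range for both, and the 45 tumours include the 21. The 21 tumours therefore cannot tell a slope like that of the 45 from none. Hypoxia lists had mixed median slopes in the 21 tumours: -0.08 for glycolysis, -0.21 for fuel storage and -0.13 for collagen hydroxylation. The median was 0.34 for angiogenic factors, 0.28 for acid export and 0.24 for the mitochondrial list. It was 0.13 for HIF subunits and sensors and 0.08 for the further regulators, against 0.05 for all genes. Only 1 gene of these lists, a HIF subunit or sensor, reached an unadjusted limma p under 0.05.

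The relation of single genes to the score was then fitted separately in the 18 tumours of sham hosts and the 27 of Si hosts. In sham hosts 2 genes followed the score (0.0165% of 12118): Vegfa, with a slope of 0.95 ± 0.16 (limma adjusted p = 0.00794), and Ak4, with 0.87 ± 0.16 (adjusted p = 0.0254). At an unadjusted p under 0.05, 434 genes followed it upward (3.58%) and 941 downward (7.77%). In Si hosts no gene passed (0.0%), with 538 at an unadjusted p under 0.05 (4.44%), 295 upward (2.43%) and 243 downward (2.01%). Ak4 had a slope of 0.79 ± 0.16 there (limma adjusted p = 0.0677) and Vegfa one of 0.67 ± 0.15 (adjusted p = 0.209). The difference between the slopes passed for no gene (0.0%), while 721 genes had an unadjusted p under 0.05 (5.95%; 474 positive, 3.91%, and 247 negative, 2.04%). It was -0.08 ± 0.23 for Ak4 and -0.28 ± 0.22 for Vegfa, so the 2 kinds of host were not shown to differ in this respect.

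Epithelial genes mostly had positive differences, none of which passed the adjusted test. In bulk tissue, fewer cells of a type and less RNA per cell cannot be told apart. Of 22 epithelial junction genes 21 had a positive difference, with a median of 0.73, and 4 were higher at an unadjusted p under 0.05. The count depended on the scored genes: 11 were higher with Adm left out of the score (median 0.93) and 1 with Car9 left out (median 0.58). Dsp, which encodes the desmosome protein desmoplakin, ranged from 5.42 to 11.43 (median 10.37) in the high and from 4.66 to 10.62 (median 7.70) in the low set, a difference of 1.93 ± 0.79 (limma p = 0.0220, adjusted 0.422). Pkp1 and Pkp3, both desmosomal plakophilins, differed by 1.34 ± 0.54 and 0.63 ± 0.29, and Jup, plakoglobin, by 0.67 ± 0.32.

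The junction score itself ran from -2.38 to 1.16 in the high and from -2.81 to 1.33 in the low set, with medians of 0.70 and 0.10, so that the ranges overlapped. Without 30 cGy replicate 4, 12 of the 22 genes were higher and the median was 0.94. Without all 5 tumours that had a score below -1, by contrast, 1 was higher and 1 lower, and the median was 0.09. The luminal list behaved alike: 15 of 17 genes had a positive difference (median 0.73), only Prom1, a surface protein of luminal progenitors, reached p under 0.05 (1.13 ± 0.53, limma p = 0.0444), and without the 5 tumours the median was -0.02. The glycolysis genes kept a median of 0.40 without these 5 tumours, with 8 of 17 higher. Among the 21 tumours between the sets, the junction and luminal lists ran the other way. Only 1 of 22 junction genes (median slope on the score -0.99) and 3 of 17 luminal genes (median -1.12) had a positive slope there. The basal list had 13 of 17 (median 1.37) and the squamous list 9 of 15 (median 0.04). None of these slopes reached an unadjusted limma p under 0.05.

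Basal and squamous genes were higher in some tumours of the high set. Of 17 basal genes 3 were higher (median 0.92). Of 21 squamous genes measured, 15 passed the filter on dim genes, and 3 of these were higher (median 0.77). Actg2, smooth muscle gamma-actin, ranged from 7.88 to 11.26 (median 8.77) in the high and from 6.02 to 9.81 (median 7.87) in the low set (1.45 ± 0.43, limma p = 0.00258). Krt14, the basal keratin, differed by 1.68 ± 0.70 (p = 0.0241) and Krt17, a keratin of basal and stressed epithelium, by 1.98 ± 0.87 (p = 0.0315).

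Krt6b, a keratin of stressed and squamous epithelium, ranged from 3.68 to 11.24 (median 5.46) in the high set and from 3.78 to 5.44 (median 4.19) in the low set, where every value lay under the table median. Krt6b therefore passed the filter on dim genes only through tumours outside the low set, and that choice enters its p. It exceeded every low tumour in 6 high ones, and the difference was 2.10 ± 0.68 (limma p = 0.00467, adjusted 0.306). Krt16, its type I counterpart in such epithelium, differed by 1.85 ± 0.65 and Dsg3, a desmosomal cadherin of squamous cells, by 1.90 ± 0.67. The 3 highest squamous scores in the high set were those of sham replicate 8 (3.54), sham replicate 11 (2.28) and 10 cGy replicate 8 (1.97). The highest in the low set was 0.48. Between the sets, 10 cGy replicate 5 (5.01) and sham replicate 3 (4.23) scored above every high tumour. Sham replicate 17 (2.19) also stood between the sets. High squamous scores were therefore not confined to the high set. Without the 5 junction-poor tumours the medians were 0.46 for the basal and 0.52 for the squamous list.

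Proliferation genes leaned the same way. All 21 tested cell cycle genes had a positive difference, with a median of 0.25, and 3 reached p under 0.05. These were Bub1 (0.52 ± 0.22, limma p = 0.0234) and Bub1b (0.42 ± 0.19, p = 0.0324), of the spindle checkpoint, and the proliferation marker Mki67 (0.32 ± 0.14, p = 0.0323). The median was 0.07, with none at p under 0.05, when the 4 tumours with muscle or fat scores above 2 were left out.

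Immediate early genes, which respond within minutes to growth factors and stress, were higher in 5 of 14, Ier3 among them, and lower in none, with a median of 0.48. Egr2 ranged from 7.61 to 10.21 (median 8.29) in the high and from 6.56 to 8.60 (median 7.77) in the low set, and all 12 high tumours exceeded the low mean (0.98 ± 0.30, limma p = 0.00273). Egr3 differed by 0.67 ± 0.26, Fos by 0.70 ± 0.32 and Atf3, a stress-induced factor, by 1.06 ± 0.28 (p = 0.000881). Atf3 was also the only 1 of 18 genes of the unfolded protein and amino acid stress response to reach p under 0.05, and the median of that list was -0.08.

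Of 19 inflammatory cytokine genes measured, 16 passed the filter on dim genes. Among these 16, 5 were higher and none lower, with a median of 0.47. Il1a, interleukin 1 alpha, ranged from 4.87 to 8.84 (median 7.16) in the high and from 3.29 to 7.25 (median 5.38) in the low set, a difference of 1.51 ± 0.44 (limma p = 0.00208, adjusted 0.238). The neutrophil-attracting Cxcl2 differed by 1.62 ± 0.56 (p = 0.00793), Il1b, interleukin 1 beta, by 0.86 ± 0.35, Lif, leukaemia inhibitory factor, by 0.87 ± 0.39 and the chemokine Ccl3 by 0.70 ± 0.30. In Il1a, 6 high tumours exceeded every low one, and in Cxcl2 4 did.

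This group depended on the inclusion of Adm in the score: ranked without Adm, 1 of 16 genes was higher and the median was 0.27. Neutrophil genes depended on it too. Of 17 measured, 12 passed the filter on dim genes. Among these 12, 2 were higher, the alarmin S100a9 (1.15 ± 0.47, limma p = 0.0223) and Retnlg (0.94 ± 0.42, p = 0.0348), with a median of 0.45. With Adm left out of the score 1 was higher and the median was 0.004. With the junction score in the fit, by contrast, 6 of the 12 were higher (median 0.86), and without the 5 junction-poor tumours 5 were (median 0.85). The neutrophil score ranged from -1.70 to 1.61 in the high and from -1.68 to 1.31 in the low set.

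Macrophage and lymphocyte genes ran the other way. Of 18 macrophage and monocyte genes 9 were lower (50% against 6.59% of all genes) and 1 higher, with a median of -0.75. Csf1r, the receptor macrophages need to live, ranged from 7.61 to 10.95 (median 9.60) in the high and from 9.39 to 11.72 (median 10.28) in the low set. Csf1r lay below every low tumour in 5 high ones, and the difference was -1.04 ± 0.35 (limma p = 0.00692, adjusted 0.339). Fcgr1, a high-affinity antibody receptor, ranged from 6.33 to 10.05 (median 8.08) against 8.20 to 10.36 (median 8.65), with 9 high tumours below every low one (-0.95 ± 0.34, p = 0.0100). Ccr2, the receptor of incoming monocytes, differed by -1.25 ± 0.42 and Adgre1, the F4/80 antigen, by -0.95 ± 0.33.

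Arg1 was the exception in that list. It encodes arginase 1, which HIF and other signals induce in macrophages of tumours, and it ranged from 5.77 to 10.97 (median 8.97) in the high and from 5.55 to 9.27 (median 7.69) in the low set, with 6 high tumours above every low one. The difference was 1.50 ± 0.54 (limma p = 0.0103, adjusted 0.346). The score of the macrophage list ranged from -1.70 to 1.37 in the high and from -0.62 to 1.35 in the low set, with medians of -0.21 and 0.27. Its genes kept a median of -0.65, with 7 lower, without the 5 junction-poor tumours, and -0.41, with 4 lower, with the junction score in the fit.

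Of 14 genes of NK and cytotoxic cells, 6 passed the filter on dim genes and all 6 were lower, with a median of -0.65. With the sets ranked anew, 2 of the 6 were lower after centring (median -0.46) and 2 after quantile normalization (median -0.50). Nkg7, a granule protein of killer cells, ranged from 4.74 to 7.23 (median 5.68) in the high and from 6.02 to 8.19 (median 7.03) in the low set. Nkg7 lay below every low tumour in 8 high ones, with a difference of -1.04 ± 0.29 (limma p = 0.00137, adjusted 0.224). Klrd1, an NK cell receptor subunit, differed by -0.67 ± 0.19 (p = 0.00179), the granzyme genes Gzmb and Gzma by -0.64 ± 0.27 and -0.56 ± 0.25, and the chemokine Ccl5 by -0.80 ± 0.35. The medians of Klrd1 and Gzma lay below the table median of 5.67 in both sets.

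T cell genes resembled them: of 15 measured, 7 passed the filter on dim genes, and 4 of these were lower, with a median of -0.53. Cd8a and Cd8b1, the chains of CD8, differed by -0.55 ± 0.19 (limma p = 0.00814) and -0.53 ± 0.19 (p = 0.0115). Cd3g and Cd3e, of the T cell receptor complex, differed by -0.82 ± 0.33 and -0.70 ± 0.30. When arrays were centred and the sets ranked anew, none of the 7 reached p under 0.05 and the median was -0.35. All 20 interferon-stimulated genes had a negative difference, as did 6560 of all 12118 genes. The median of the 20 was -0.33, but none of them reached p under 0.05. Of 8 genes of dendritic cells and MHC class II, Ccr7, which guides cells to lymph nodes, was lower (-0.51 ± 0.18, limma p = 0.00776).

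**Figure D4:**
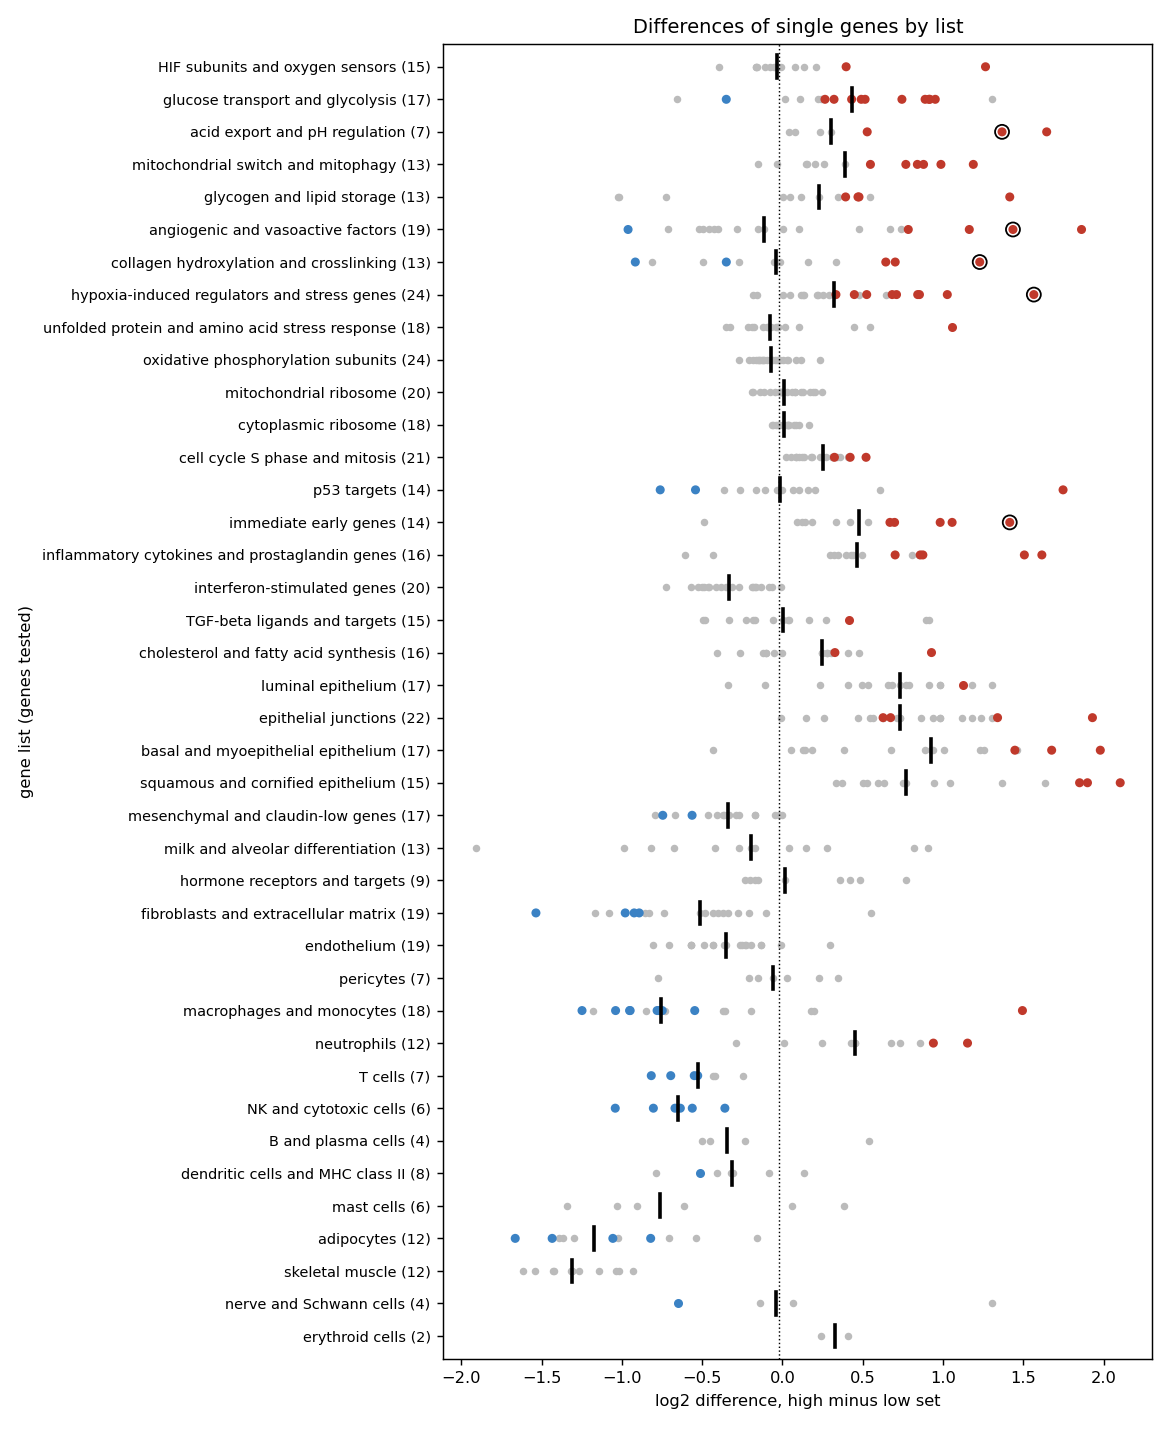
Each point is the log2 difference, high minus low set (horizontal axis), of 1 tested gene, arranged by gene list (vertical axis, genes tested in brackets). Red and blue points had an unadjusted limma p under 0.05, higher or lower, ringed points passed the adjusted test, grey points did neither, black bars are list medians, and the dotted line is the median of all 12118 genes (-0.02); glycolysis genes lie to the right (median 0.43) and macrophage genes to the left (median -0.75).

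Stromal genes were lower in places. Of 19 fibroblast and matrix genes 18 had a negative difference, with a median of -0.51, and 4 were lower: Col6a1 (-0.89 ± 0.39, limma p = 0.0294) and Col6a2 (-0.92 ± 0.41, p = 0.0321), of collagen VI, and the small proteoglycans Dcn (-0.98 ± 0.47) and Ogn (-1.53 ± 0.73). Of 17 mesenchymal and claudin-low genes all had a negative difference, with a median of -0.34, and the repressor Zeb2 (-0.75 ± 0.35, p = 0.0411) and the receptor kinase Axl (-0.56 ± 0.26, p = 0.0423) were lower. Without the 5 junction-poor tumours neither list held a gene at p under 0.05, with medians of -0.38 and -0.09.

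Endothelial genes did not follow Vegfa: none of 19 reached p under 0.05 and their median was -0.35. Tek, the receptor of Angpt1, came closest, from 5.49 to 8.49 (median 6.39) in the high and from 5.64 to 10.31 (median 7.41) in the low set (-0.81 ± 0.41, limma p = 0.0591). The sign of the endothelial median rested on the junction-poor tumours, without which it was 0.09, with 1 gene higher. Pericyte genes (7, median -0.06, or 0.004 after quantile normalization with the sets ranked anew) had none at p under 0.05.

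Host tissue carried the largest median differences. All 12 adipocyte genes had a negative difference, with a median of -1.18, and 4 were lower. These were Pparg, the regulator of fat cells (-1.06 ± 0.44, limma p = 0.0237), the lipase gene Lipe (-0.82 ± 0.35), and Cidec (-1.66 ± 0.74) and Plin1 (-1.43 ± 0.66), of the lipid droplet. All 12 skeletal muscle genes also had a negative difference, with a median of -1.31 and none at p under 0.05; with the sets ranked anew, 11 of the muscle genes were lower with Adm left out of the score (median -2.21), 9 after centring (median -2.07) and 10 after quantile normalization (median -2.12). The adipocyte score ranged from -1.42 to 0.96 in the high and from -1.24 to 4.11 in the low set, and the muscle score from -1.47 to 2.29 and from -1.49 to 6.55. Without the 1 high and 3 low tumours with a score above 2 the medians were -0.36 and -0.37, no adipocyte gene reached p under 0.05, and Ak4, Vegfa and Slc16a3 still passed the adjusted test while Fkbp5 (adjusted p = 0.0531), Ier3 (0.0925) and Ero1a (0.109) did not.

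Among 14 p53 targets, measured in tumours that lack p53, 1 was higher and 2 lower, with a median of -0.02 that was 0.03 after centring and 0.04 after quantile normalization with the sets unchanged. Perp, which also belongs to desmosomes, differed by 1.75 ± 0.65 (limma p = 0.0128), Eda2r, a receptor of the tumour necrosis factor family, by -0.76 ± 0.24 (p = 0.00398) and Sesn1, a stress-response gene, by -0.54 ± 0.20 (p = 0.0119). Of 15 TGF-beta ligands and targets 1 was higher, the matricellular gene Ccn2 (0.41 ± 0.19, p = 0.0389), and the median of the list was 0.0051, or -0.02 after centring with the sets ranked anew. Of 16 genes of cholesterol and fatty acid synthesis 2 were higher, Idi1 (0.93 ± 0.39, p = 0.0263) and Fdft1 (0.33 ± 0.16, p = 0.0461), both of the sterol pathway, with a median of 0.25. This did not hold without the 5 junction-poor tumours, where none was higher, 3 were lower and the median was 0.05, nor with the junction score in the fit, where 1 was higher, 2 were lower and the median was 0.06.

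The remaining lists held few or no genes at p under 0.05. Milk and alveolar genes (13 tested, median -0.20), hormone receptors and their targets (9, median 0.01, or -0.0079 after quantile normalization with the sets unchanged), B and plasma cells (4, median -0.34), mast cells (6, median -0.76) and erythroid cells (2, median 0.33) had none. Of 4 nerve and Schwann cell genes, Pmp22, a myelin protein gene that other cells also use, was lower (-0.65 ± 0.31, limma p = 0.0448), and the list's median of -0.04 was 0.03 after centring with the sets ranked anew. Cpa3, the mast cell carboxypeptidase, ranged from 3.97 to 10.20 (median 4.85) in the high and from 4.63 to 10.98 (median 6.51) in the low set, and 5 high tumours lay below every low one (-1.34 ± 0.71, p = 0.0702). Of the cell-type and host-tissue scores named above, only the junction score was entered in a fit; the part of the others was not tested beyond leaving tumours out.

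Several other lists also differed when tumours were left out. Without the 5 junction-poor tumours, 2 of 7 pericyte genes were higher (median 0.32), none of 14 p53 targets was higher and 3 were lower (median 0.03), and 6 of 19 angiogenic factors were higher and none lower (median 0.12). The medians of the collagen list (0.06), of HIF subunits and sensors (0.02) and of hormone receptors (-0.10) then had the opposite sign. Without the 4 tumours with muscle or fat scores above 2, no neutrophil, fibroblast or mesenchymal gene reached p under 0.05, 2 of 16 cytokine genes were higher, and 3 of 6 NK genes were lower. The scored genes mattered as well. With Adm left out of the score, 10 of 17 basal and 8 of 15 squamous genes were higher. In that ranking 12 of 18 macrophage and 7 of 19 fibroblast genes were lower. With Car9 left out, 1 basal and 3 squamous genes were higher, and 5 macrophage and 3 fibroblast genes were lower.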

How the data were processed

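Values were the deposited log2 expression per probe set, which per the submitters' processing notes came from RMA and the oligo package, with versions not given in the sources used here. RMA makes array distributions alike, so a shift shared by most genes is removed. The annotation table gave a single symbol to 21218 of the 35556 probe sets, several to 1881 and none to 12457. Each gene was represented by its probe set with the highest mean. Genes above the table median (5.67) in at least 8 tumours were kept (12123, all 5 scored genes among them). Trp53 was not analysed here.

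The members and the 40 gene lists were chosen with earlier results of these data known. The high and low sets were compared with limma 3.58.1 in R 4.3.3 (lmFit, eBayes, two-sided, Benjamini-Hochberg over 12118 genes, threshold 0.05, no covariates), and slopes on the score were fitted within sham and Si hosts with host group means. The fit was tested on simulated data. Errors are standard errors unless named SD, and the number of arrays limits precision. Host shares were compared with exact tests.

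Genes were named by rule: up to 14 in each direction with adjusted p under 0.05, the scored genes, HIF subunits with Vhl, Egln1 and Egln2 (Hif3a did not pass the filter), up to 5 per list with the smallest p, and the 5 most alike to the score. Alternatives covered set size, scaling, filter, covariates, the score's genes, probe sets, label stems and tumours left out. Promoters came from RefSeq (GRCm38.p6), where all 11 genes looked up were found. Replicate numbers do not pair tumours: same-numbered tumours of different groups had a median correlation of -0.07 (52 pairs), against -0.02 for others.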

Additional observations from a re-analysis of the deposited data

Results flagged for a closer look

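Each of the score, the 5 scored genes and the 6 genes that passed the test was examined within the 10, 30 and 80 cGy host groups for a tumour far from the rest by Dixon's criterion, and 2 of these 36 groups held one, close to the 1 in 20 that chance gives. The score of 80 cGy replicate 8 was 7.17 while the next of the 8 tumours of that group stood at 7.95, so this is the only 80 cGy tumour in the low set. Fkbp5 was 9.71 in 30 cGy replicate 1, the tumour with the highest muscle and fat scores among the 24, and 8.71 at most in the other 9 tumours of that group. The cause was not tested in either case.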

How the results depend on the processing

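The number of genes past the adjusted threshold, 6, was 20 with all 45 tumours in the fit, 10 for a slope on the score over 45 tumours, 16 with array weights, 20 with Adm and 3 with Ankrd37 left out of the score, and 3 for the 15 highest against the 15 lowest; it was 4 to 7 under the other alternatives chosen at the start. Added after the data were seen, leaving out 1 tumour gave 4 to 26, and leaving out the 5 junction-poor tumours gave 3. For these changes the cause was not tested. Replicate numbers as a block gave 6 genes, the same 6 as without it, and label stems as a block gave 6. The correlation within blocks was -0.01 for replicate numbers and 0.27 for label stems. Ak4 passed on leaving out each of 24 tumours and under the 27 other alternatives. Vegfa was lost only with Ankrd37 left out of the score (adjusted p = 0.0629). Unfiltered genes gave 1 gene following the score in Si hosts in place of 0. The share of sham hosts stayed higher in the high set under every alternative (6.67 to 30.3 points), with exact p from 0.370 to 1. The difference of Vhl high minus low turned positive under 11 alternatives: 0.0654 for the sets of 15, 0.0125 for the slope, 0.0847 and 0.0302 with centring (sets ranked anew and unchanged), 0.14 and 0.0358 with quantile normalization, 0.10, 0.0323 and 0.0082 with Adm, Egln3 and Ankrd37 left out, 0.0054 with stems as a block and 0.0182 without junction-poor tumours; leaving out 1 tumour gave -0.0683 to 0.0323. Dim genes and the number of arrays limit what can be seen.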
